A study of Mus musculus with 2 samples.

Results

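The early erythroid progenitors described here were the cells of the control library in which Myb was above 0, in which Klf1 or Gata1 was above 0, and in which both Slc4a1 and Sox9 were at 0. By this rule 157 of the 4903 control cells were members, or 3.20% (exact 95% binomial interval 2.73 to 3.73%, which covers counting error only), among 6243 cells in the 2 libraries of the series. The cells came from knee joints of female mice aged 1 month, and each library was a pool of 2 to 3 mice of 1 genotype. The control mice were Stat3fl/fl and the mutant mice were Acan-Cre+/Cre;Stat3fl/fl, so both carried the floxed Stat3 alleles and only the mutant carried a Cre recombinase, which the study induced with tamoxifen and which the aggrecan promoter directs to chondrocytes rather than to blood cells. Cells were sorted as live (without DAPI) and without CD31, Ter119 and CD45, a gate that removes endothelial cells, mature erythroid cells and leukocytes, so the erythroid cells described are those that passed it. With 1 library per genotype and cells that are not replicates of a condition, no test across samples was possible, and all comparisons below set groups of cells of the same library side by side.

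Red cell production in the marrow starts from committed progenitors that divide quickly, and then runs through stages in which hemoglobin is assembled, the membrane skeleton is built and the nucleus is finally lost. Myb is a transcription factor that keeps hematopoietic progenitors immature and dividing, Gata1 and Klf1 (EKLF) are the transcription factors that switch on most erythroid genes, and Slc4a1 (band 3, the anion exchanger of the red cell membrane) and Alas2 (the erythroid form of the first enzyme of heme synthesis) mark cells further along. The earliest cells committed to this lineage form bursts or small colonies in culture (BFU-E and CFU-E). The growth factor receptor Kit is carried by early cells of the lineage and lost as cells mature.

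Erythroid genes are classically controlled through GATA and CACC letters close to their starts, which Gata1 and Klf1 can bind, so the promoters of 3 genes that mark steps of this path are shown, each from 250 bases before to 50 bases after the start, from RefSeq (build GRCm38.p6, the same assembly as mm10). Klf1 (chr8:84901732-84902031, plus strand) belongs to the rule, Alas2 (chrX:150547167-150547466, plus strand) defines the later cells, and Hbb-bs (chr7:103827879-103828178, minus strand) encodes the adult beta globin that differed most between them. Capitals mark the letters that were searched on both strands, which were the GATA core AGATAA, the other common form of that core, TGATAA, and the letters of a Klf1 box, CACCC. On the strand printed, a match to the opposite strand appears as the reverse complement.
Klf1: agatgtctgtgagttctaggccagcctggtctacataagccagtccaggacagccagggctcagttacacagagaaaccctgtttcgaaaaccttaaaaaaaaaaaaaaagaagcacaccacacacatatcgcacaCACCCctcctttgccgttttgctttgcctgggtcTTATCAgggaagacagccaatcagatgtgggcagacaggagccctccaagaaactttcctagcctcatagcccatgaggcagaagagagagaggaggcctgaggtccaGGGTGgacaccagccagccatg
Alas2: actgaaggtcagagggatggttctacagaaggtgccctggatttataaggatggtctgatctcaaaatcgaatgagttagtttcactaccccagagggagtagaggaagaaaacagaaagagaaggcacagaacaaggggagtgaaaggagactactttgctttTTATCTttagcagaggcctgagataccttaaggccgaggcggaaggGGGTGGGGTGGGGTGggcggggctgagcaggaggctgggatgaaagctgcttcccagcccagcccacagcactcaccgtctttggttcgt
Hbb-bs: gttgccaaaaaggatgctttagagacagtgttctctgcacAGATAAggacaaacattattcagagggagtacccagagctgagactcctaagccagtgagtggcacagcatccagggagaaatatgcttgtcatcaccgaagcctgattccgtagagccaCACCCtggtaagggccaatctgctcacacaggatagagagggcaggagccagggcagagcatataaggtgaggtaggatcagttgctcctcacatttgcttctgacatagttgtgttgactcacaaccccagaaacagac
Each of these 3 promoters held 1 GATA match, and they held 2, 3 and 1 CACCC matches in the order shown. Over the 20267 genes of the table matched by symbol to RefSeq, 19.0% had a GATA match, 61.6% a CACCC match and 9.36% both. Among the gene lists used below, both were found in 5 of 6 matched globin genes, in 6 of 12 CFU-E stage genes and in 6 of 12 erythroid transcription factors. They were found in 2 of 11 heme synthesis genes, 2 of 9 membrane genes and 1 of 9 iron genes, and in 0 of 14 ribosome biogenesis genes. A match of letters is a description of the sequence and was not tested as a binding site.

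The values that chose the members are given as a description. In the members Myb (chr10:21124935-21160984, minus strand) ranged from 0.653 to 6.96 estimated UMIs (unique molecular identifiers, each an original RNA molecule) with a median of 0.977, and rounded to 1 UMI in 91 cells, 2 UMIs in 36 and 3 or more in 30. Klf1 (chr8:84901928-84905291, plus strand) was above 0 in 140 members and Gata1 (chrX:7959260-7978071, minus strand) in 100, with both in 83, Klf1 alone in 57 and Gata1 alone in 17. Most memberships therefore rested on a single Myb molecule. On the other side of the threshold, 96 cells met every criterion except that Slc4a1 was above 0, at 1 UMI or less after rounding in 32, at 2 in 13 and at 3 or more in 51, and 9 further cells with Myb and Klf1 or Gata1 were left out for Sox9. Another 382 cells without Slc4a1 and Sox9 had Klf1 or Gata1 but no Myb. The later-stage group was defined by Slc4a1 and Alas2 both above 0 and held 766 cells (15.6% of the library), of which 45 also had Myb, and the rest of the library held 3980 cells.

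The members were deeply covered. Their totals ran from 916 to 19402 estimated UMIs with a median of 9449, against medians of 5466 in the later stage and 3934 in the rest, and they showed a median of 2952 genes per cell against 1972 and 1711. Their ribosomal share had a median of 31.3% (29.2% later, 13.2% in the rest), and 5 members (3.18%) were above 5% mitochondrial counts. Because a deeper cell is more likely to show a UMI of Myb, the main shares of cells are given below both as counted and at an equal depth of 2638 UMIs drawn from each cell. Too shallow for this draw were 2 members, 73 later-stage cells and 886 of the 2531 cells of the rest in which Myb, Klf1, Gata1, Slc4a1 and Alas2 were all at 0. The 2 libraries shared 2 barcodes, and 0 of them belonged to a member.

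The erythroid label was read beside 15 genes of the CFU-E stage. A member had a median of 12 of them above 0 (lowest 2, highest 15), a later-stage cell 11 and a rest cell without erythroid genes 1, and 152 of the 157 members had 8 or more. Those rest cells were chosen for having none of Myb, Klf1, Gata1, Slc4a1 and Alas2, and they were shallower (median 3471 UMIs). A low number there was partly set by that choice, so these counts describe the members and do not test the label. Pklr (chr3:89136142-89146784, plus strand), which encodes the pyruvate kinase of red cells and liver, was above 0 in 67.5% of members (59.6 to 74.8%) and in 2.13% of the rest without erythroid genes. Btk (chrX:134542336-134583570, minus strand), a kinase best known from B cells that also acts downstream of the erythropoietin and Kit receptors, was above 0 in 42.0% (34.2 to 50.2%) and in 0.948%. Thinned, these shares became 31.0% against 1.22% for Pklr and 14.8% against 0.365% for Btk. The cells compared were chosen without erythroid genes, so these gaps too describe the members and do not test the label. In the later stage the shares were 31.2% for Pklr and 12.9% for Btk, or 16.2% and 6.06% thinned.

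Most markers of other blood cells were at 0. All 12 neutrophil and monocyte markers and all 6 eosinophil markers were at 0 in the members, as were 10 of 12 B cell markers. Of 10 mast cell and basophil markers 8 were at 0, and nearly all of the remaining signal was Il1rl1 (the IL-33 receptor), at 24.9 CPM (counts scaled to 1000000 UMIs summed over the cells of a group) in members and 47.2 in the later stage. Of 10 megakaryocyte markers 3 were at 0, with a sum of 16.6 CPM against 27.5. Ptprc, which encodes the CD45 of the gate, had a UMI in 9 members (5.73%, 2.65 to 10.6%) against 0.653% of later-stage cells, but thinning brought these to 1.94% and 0.722% with overlapping intervals. Egfl7, named for endothelial cells, was at 30.9 CPM in members against 5.58 later, and was above 0 in 22.3% of members against 3.13% of the later stage (9.68% and 1.15% thinned), whereas Pecam1, the CD31 of the gate, was found in 1 member.

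Some members carried joint RNA. A UMI of any of 32 markers of chondrocytes, fibroblasts, osteoblasts and marrow stroma was found in 31 members, and 8 of these exceeded 1000 CPM, up to 39586. The summed level was 801 CPM in the members, 3576 in the later stage and 50402 in the rest, and it was 9.45 CPM in the members without those 8 cells. The rule kept cells with Sox9, a gene by which the study defined chondrocytes, out of the members but not out of the other groups. The lower joint RNA of members can therefore be partly set by the rule, and how much was not tested. The same holds for the ratios of joint genes below, Sparc and the collagens among them. Scrublet called 4 members (2.55%) as doublets, against 3.26% of the later stage and 1.13% of the rest. Comparisons below were also computed without such cells, and a value is named where this mattered.

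Against the later stage, the members had more RNA of the nucleolar machinery that makes ribosomes and less of the globin, heme synthesis and membrane genes. Most CFU-E stage, iron and erythroid transcription factor genes were within 2-fold. A gene was called higher or lower when log2 of (CPM + 1) in members over later stage was at least 1 in size, among 7372 genes with at least 10 CPM in either group; 573 genes (7.77%) were higher by this measure and 546 (7.41%) lower, and the median over genes was 0.06. Both groups were cut on levels measured in the same cells, so genes that follow Slc4a1, Alas2 or Myb are described here and not tested. The lists were read against these background shares. Of the 15 CFU-E stage genes, 1 (Mt2, described below) was at least 2-fold higher and 2 lower, and 12 were within 2-fold (median -0.47). The lower ones were Hemgn, at 319 CPM in members against 773 later (-1.27), and Trim10, at 35.7 against 140 (-1.94). Vamp5 (0.95), Tfr2 (0.82), Pklr (0.69) and Car1 (0.50) had ratios above 0.

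Of 18 ribosome biogenesis genes, 16 were at least 2-fold higher in the members and 0 lower, with a median log2 ratio of 1.38. Their summed level was 9539 CPM in members and 3649 CPM in the later stage. Npm1, the abundant nucleolar chaperone nucleophosmin, ranged over members from 0 to 4790 CPM per cell with a median of 2171, and over later-stage cells from 0 to 3014 with a median of 546. The per-cell ranges overlapped, while the summed levels were 2304 and 735 CPM (log2 ratio 1.65). Ncl, which encodes nucleolin, was at 3555 CPM against 1426 (1.32), Gnl3 (nucleostemin) at 508 against 143 (1.83) and Rrp9, a component of the U3 particle that cuts ribosomal precursor RNA, at 61.2 against 11.2 (2.35). Fbl (fibrillarin) was at 327 against 157 CPM (1.05). Only Nop56 (0.92) and Dkc1 (0.84) of this list stayed below 2-fold.

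**Figure D1:**
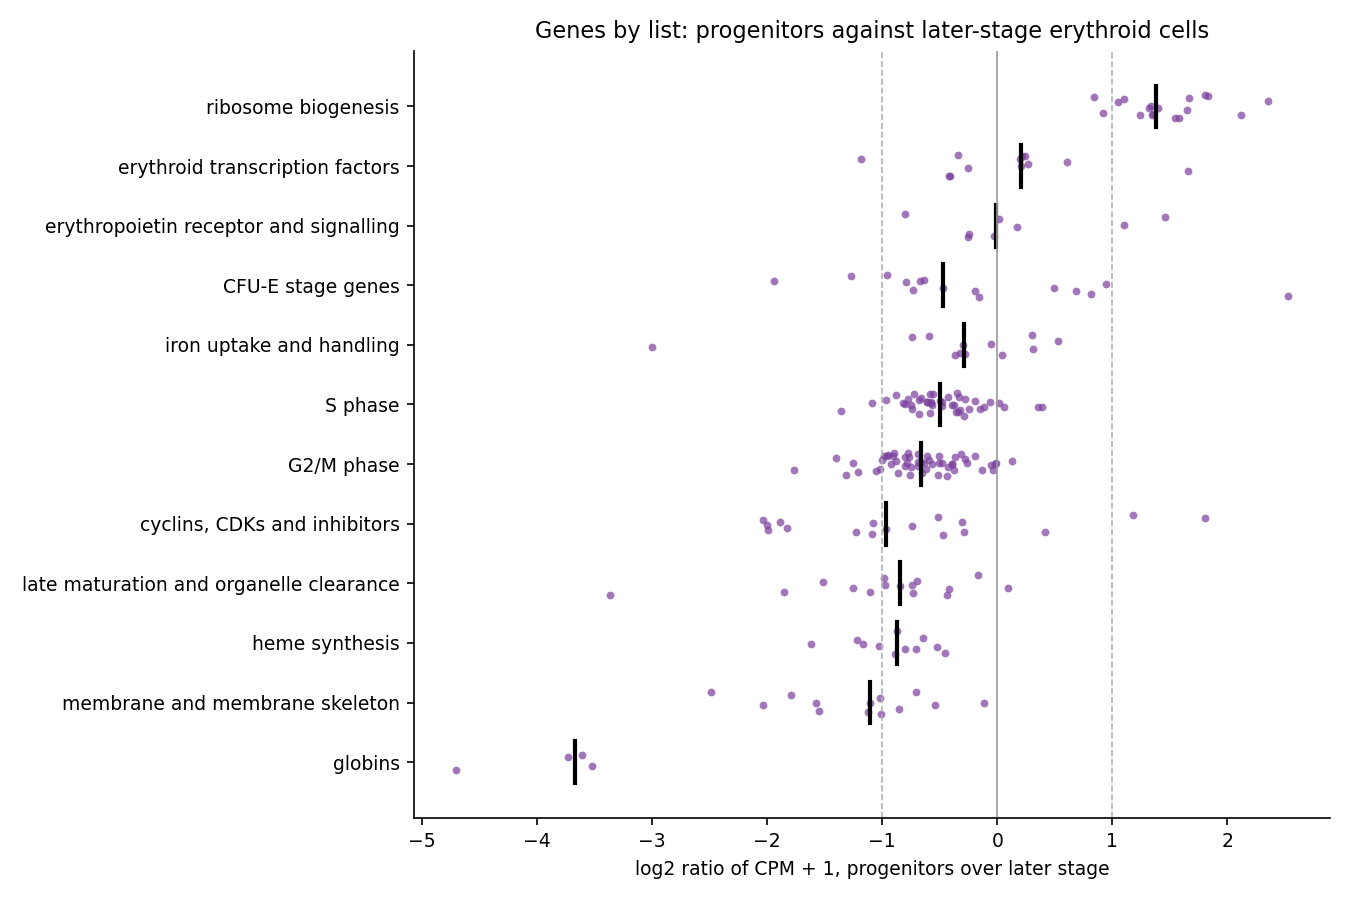
Log2 ratio of CPM + 1 in the 157 progenitors over the 766 later-stage cells (horizontal axis) for each measured gene of 12 lists (rows), with 1 point per gene, the list median as a vertical bar and dashed lines at 2-fold; the 6 genes of the rule are left out. Ribosome biogenesis lies to the right with a median of 1.38, the transcription factors sit around 0 and the 4 globins lie farthest to the left, with a median of -3.67.

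The genes of hemoglobin assembly went the other way. All 12 measured heme synthesis genes were lower in members, 5 of them (Alas2 included) by at least 2-fold, with a median log2 ratio of -0.87 without Alas2. Fech, which inserts iron into the ring, was at 159 CPM in members and 372 later (-1.22), and Abcb10, a mitochondrial transporter needed for heme synthesis, at 117 and 360 (-1.62). Slc25a37 (mitoferrin-1), which carries iron into mitochondria for this pathway, showed the largest difference of the iron list, with 39.1 CPM in members and 321 later. It was above 0 in 31.2% of members (24.1 to 39.1%) and 74.5% of later-stage cells, and in 13.5% and 50.8% after thinning. The other iron genes differed less, and 11 of 12 on that list were within 2-fold, with Tfrc, the transferrin receptor, at 521 CPM against 872 (-0.74) and the ferritin heavy chain gene Fth1 at 2961 against 4472 (-0.59).

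Globin RNA was present in the members at a low level. Hbb-bs ranged over members from 0 to 7674 CPM per cell with a median of 130, and over later-stage cells from 0 to 90956 with a median of 8082. The 4 adult globin genes together gave 989 CPM in members and 16951 later, and all 4 were lower in members, with log2 ratios from -4.70 (Hbb-bs) to -3.52 (Hba-a2). Nearly every member (98.7%) had some globin UMI, with a median of 4.65 UMIs per cell, but so did 59.7% of the rest without erythroid genes, at 248 CPM. Thinned, Hbb-bs was above 0 in 36.1% of members (28.6 to 44.2%), 98.6% of the later stage and 9.73% of the rest without erythroid genes.

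Membrane and membrane skeleton genes were lower in members as well. Apart from Slc4a1, 9 of 13 measured genes were at least 2-fold lower and 0 higher, with a median of -1.11. Tmod1 (tropomodulin, which caps the short actin filaments of the skeleton) was at 7.81 CPM against 48.3 (-2.48) and Epb42 (protein 4.2) at 32.1 against 113 (-1.79), whereas Add2, the beta adducin gene, was at 215 against 232 (-0.11). Of 15 genes of late maturation and organelle clearance, 5 were at least 2-fold lower and 0 higher (median -0.84).

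The transcription factors that define the lineage differed little. Without Gata1 and Klf1, 12 factors had a median log2 ratio of 0.20, with 1 at least 2-fold higher and 1 lower, and the median was -0.12 when every cell was thinned, so no direction is given to this list. Their partners Tal1, Lmo2 and Zfpm1 (FOG-1) were at 118, 132 and 269 CPM in members and 158, 168 and 358 in the later stage. Cbfa2t3 (ETO2), a corepressor of the Gata1 and Tal1 complex, was the one 2-fold higher, at 73.9 CPM against 22.7 (1.66). Nfe2, an activator of globin genes in late cells, was the one 2-fold lower, at 24.9 against 57.7 (-1.18). Bcl11a, the repressor of embryonic globins, was at 198 against 130 (0.61). Sox6, which acts with it, was not on that list and ranged over members from 0 to 1701 CPM per cell with a median of 0, and over later-stage cells from 0 to 2430 with a median of 268. Its summed level was 62.8 against 316 CPM (-2.31), and its thinned share was 20.0% in members, 50.1% in the later stage and 19.9% in the rest without erythroid genes.

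Kit, the receptor of early progenitors, was higher in members than in later-stage cells. Kit (chr5:75574916-75656722, plus strand) ranged over members from 0 to 639 CPM per cell with a median of 0, and over later-stage cells from 0 to 453 with a median of 0. It was above 0 in 59 members (37.6%, 30.0 to 45.7%) and in 9 later-stage cells (1.17%, 0.539 to 2.22%), and its summed level was 57.8 against 3.30 CPM (log2 ratio 3.78). This ratio was 5.38 with the later stage at 2 or more UMIs of Slc4a1 and Alas2, 2.87 with thinned cells and 2.35 with a pseudocount of 10 CPM. After thinning the shares were 9.03% (5.03 to 14.7%) and 0.866% (0.318 to 1.87%), against 1.46% in the rest without erythroid genes. Of the 11 stem and early progenitor surface genes, 7 were at 0 in the members, Cd34 and Flt3 among them, and 3 reached 10 CPM in either group. Those were Kit, Ly6a, which was lower in members (2.48 against 11.5 CPM, -1.84), and Adgrg1, which was above 0 in 32.5% of members and at 41.1 against 29.6 CPM (0.46). Ly6a was above 0 in only 1.91% of members and 3.13% of later-stage cells, and was at 207 CPM in the rest without erythroid genes. Whether joint RNA carried its difference was not tested. Of the early progenitor transcription factors other than Myb, 4 reached 10 CPM and all 4 were within 2-fold, with a median of 0.04. They were Ikzf1 (176 against 155 CPM), Runx1 (58.1 against 62.3), Myc (33.1 against 19.5) and Lyl1 (25.6 against 36.1), found in 76.4%, 42.7%, 23.6% and 22.3% of members. Gata2, which precedes Gata1, was at 6.74 CPM in 3.18% of members (1.94% thinned), with most of it from 3 cells.

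Erythropoietin receptor signaling genes were detected without a common direction. Of 8 measured genes 2 were at least 2-fold higher and 0 lower, with a median of -0.01. Epor itself was at 26.2 CPM in members and 26.7 in the later stage (-0.03), and the order of its shares turned with depth, from 23.6% against 15.1% as counted to 5.16% against 7.36% thinned. The higher genes were Btk, at 67.1 against 23.7 CPM (1.46), and Stat5a, a main transducer of this receptor, at 22.4 against 9.91 (1.10). Thinned, Btk was above 0 in 14.8% of members (9.64 to 21.4%) and 6.06% of the later stage (4.40 to 8.10%). The thinned shares of Stat5a, 5.16% (2.25 to 9.92%) and 3.03% (1.89 to 4.59%), had overlapping intervals. Stat5b, its close relative, was at 21.7 against 21.5 (0.01).

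Cell cycle genes were high in members, although lower than in the later stage. Mki67, the proliferation marker Ki-67, was above 0 in every member, from 33.9 to 7605 CPM per cell with a median of 2190, and over later-stage cells it ranged from 0 to 17979 with a median of 3381. The 43 S phase genes summed to 6204 CPM in members, 8686 in the later stage and 991 in the rest without erythroid genes. The G2/M genes summed to 12748, 19135 and 2086 CPM. The log2 ratios of the sums to the later stage were -0.49 and -0.59, and 39 of 43 S phase genes and 52 of 53 measured G2/M genes were lower in members, although only 2 and 8 of them by at least 2-fold. Rrm2, the small subunit of ribonucleotide reductase, was at 165 CPM against 425 (-1.36), and Nusap1, a spindle protein, at 117 against 402 (-1.77). Of 17 measured cyclins, CDKs, inhibitors and related genes, 2 were at least 2-fold higher in members, 8 lower and 7 within 2-fold, with a median of -0.96. The higher ones were Cdk6 and Ccnd2. Cdk6 ranged over members from 0 to 704 CPM per cell with a median of 128, and over later-stage cells from 0 to 1446 with a median of 0. Its summed level was 179 against 50.4 CPM (1.81), and it was above 0 in 33.5% and 11.0% of cells after thinning. Ccnd3, the D-type cyclin of maturing erythroid cells, was at 191 against 683 CPM (-1.83), and the transcription factor gene E2f2 at 35.5 against 145 (-2.00). Ccnd2 was at 32.1 against 13.6 CPM (1.18), and this ratio was 3.31 without the cells above 1000 CPM of joint markers. The inhibitor Cdkn1a, at 5.33 against 12.3 CPM (-1.08), turned to 0.56 without those cells. Cdkn1c, another inhibitor, went from -1.99 to -0.79 without those cells and to -0.30 with thinned cells.

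**Figure D2:**
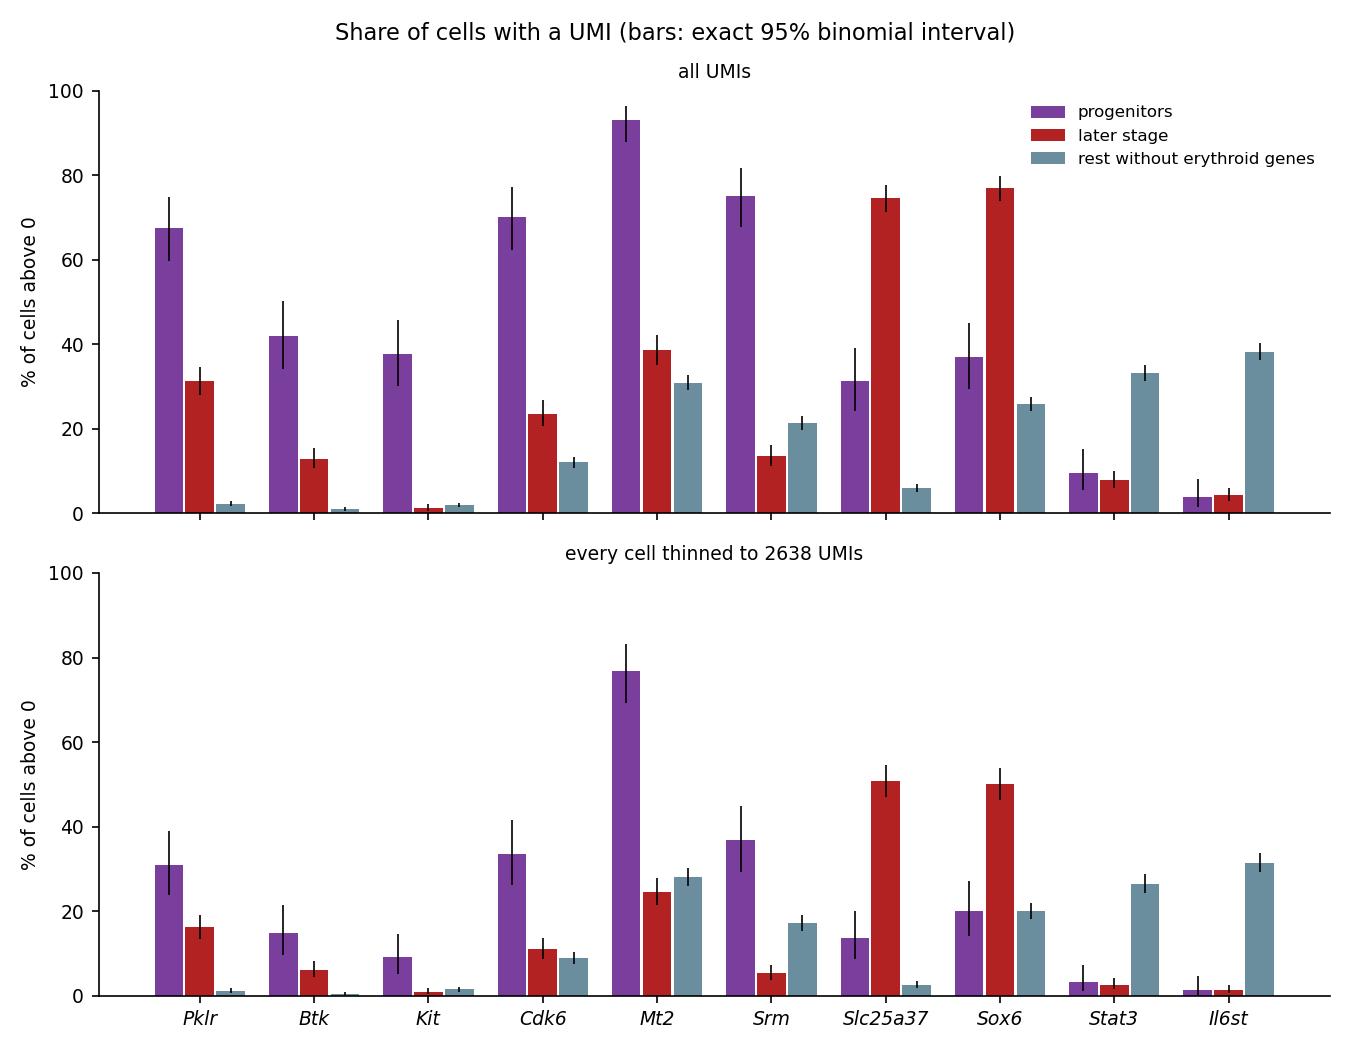
Percent of cells with a UMI of 10 genes (vertical axis) in the 157 progenitors, the 766 later-stage cells and the 2531 cells of the rest without erythroid genes, as counted (top) and with every cell thinned to 2638 UMIs (bottom); error bars are exact 95% binomial intervals for counting error. Pklr, Btk, Kit, Cdk6, Mt2 and Srm stayed higher in progenitors than in later-stage cells after thinning, as 9.03% against 0.866% for Kit, and Slc25a37 and Sox6 stayed lower.

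Over all genes, those of the lists included, 1724 were above 0 in at least 10% of cells of either group and reached 100 CPM, and the 10 highest and 10 lowest ratios among them were taken. Wdr12 and Mt2 of the highest, and the 4 globins and Slc25a37 of the lowest, were on the lists above. Srm (spermidine synthase, a step of polyamine synthesis) led the highest, at 185 against 27.9 CPM (2.68), with a thinned share of 36.8% against 5.34%. Npm3, a relative of nucleophosmin, was at 176 against 34.4 (2.33). Wdr12 and Mybbp1a, both of the nucleolus, were at 106 against 23.5 (2.12) and 238 against 63.7 (1.89), and Gpatch4 was at 115 against 24.8 (2.17). The metallothioneins Mt2 and Mt1, which bind zinc and copper, were the most abundant of the 10. Mt2 ranged over members from 0 to 2905 CPM per cell with a median of 587, and over later-stage cells from 0 to 2236 with a median of 0. Its summed level was 820 against 141 CPM (2.53), and that of Mt1 was 1351 against 278 (2.28). Mt1 was also at 696 CPM in the rest without erythroid genes, so its level was high in cells of other kinds too. Bzw2, Atad3a and Bri3bp completed the 10, with ratios from 2.01 to 2.08. The lowest 10 held the 4 globins, Slc25a37, Sox6, Acp5 (19.6 against 186 CPM, -3.19) and Fam117a (64.8 against 369, -2.49), and also Fosb and Sparc. Sparc, a matrix protein of joint tissue, was found in only 5.10% of members, with 94.7% of its UMIs in 3 cells, and its ratio of -2.18 became -0.58 without the cells above 1000 CPM of joint markers. Fosb went from -2.37 to -1.28.

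The members lay at 1 end of an ordered series of cells. The 4 groups were set in order by the genes of the rule: the 142 members without Alas2, the 15 members with Alas2, the 96 cells with Myb and Slc4a1, and the 721 later-stage cells without Myb. The summed ribosome biogenesis level was 9667, 8209, 6131 and 3480 CPM in this order. Heme synthesis without Alas2 was 2396, 2716, 3863 and 4525 CPM, and membrane genes without Slc4a1 were 1519, 1977, 2548 and 3202. Globins showed the widest range, with 847, 2467, 6940 and 17699 CPM. The second group held only 15 cells. Per cell, the heme medians of the first 2 groups were 2426 and 2397 CPM, so that step was not seen in the medians. The globin medians were 538 and 1387 CPM, with a highest value of 18389 in the second group. The S phase sum was 6150, 6768, 8174 and 8721 CPM, and the G2/M sum 12592, 14379, 17436 and 19177. The 12 erythroid transcription factors without Gata1 and Klf1 stayed between 1508 and 1652 CPM. The order was set by genes of the same cells and is a description. Kit followed with 59.1, 44.2, 22.3 and 1.48 CPM, and Srm with 190, 132, 58.8 and 24.8.

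**Figure D3:**
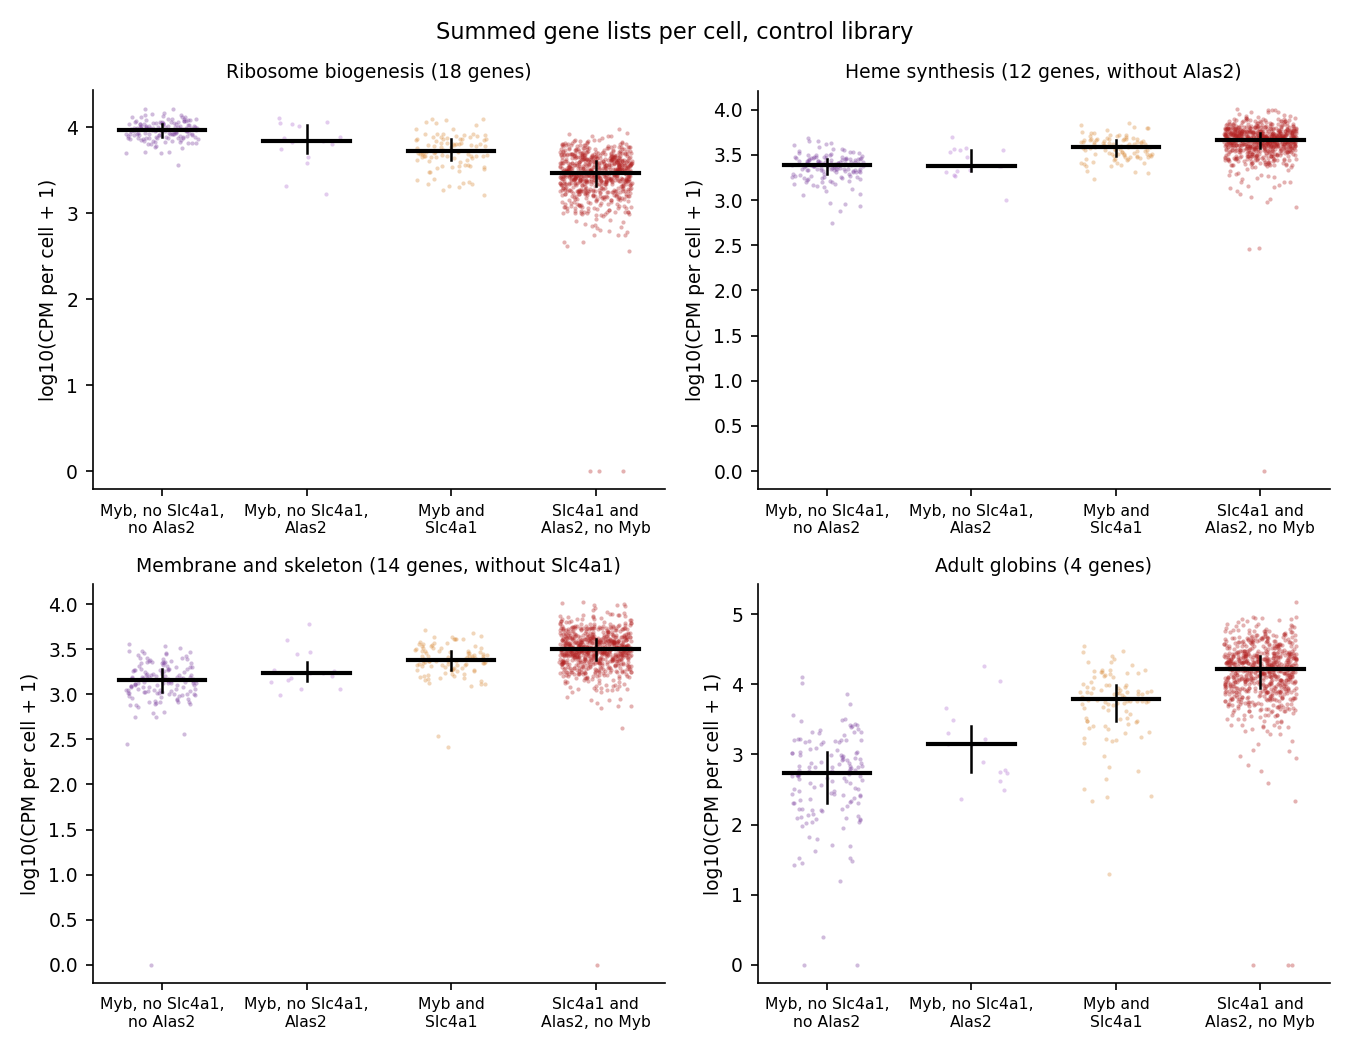
Summed CPM per cell of 4 gene lists (vertical axis, log10 of CPM + 1) in the 142 and 15 progenitors without and with Alas2, the 96 cells with Myb and Slc4a1 and the 721 later-stage cells without Myb; each point is a cell, the thick bar the median and the thin line the quartiles. The median of ribosome biogenesis is 9404 CPM in the first group and 2952 CPM in the last, and that of globins 538 and 16346 CPM, with overlap between neighboring groups.

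The 157 members varied among themselves along the same axis. The ribosome biogenesis sum ranged from 1683 to 16510 CPM per cell and the heme synthesis sum from 557 to 4976. Across the members the 2 sums had Pearson's r = -0.51 and Spearman's rho = -0.49, and ribosome biogenesis against the globin list had r = -0.54 and rho = -0.57. Both sums of a pair are parts of the same total in the same cell. Ribosome biogenesis also rose with that total (rho = 0.39), while the globin list (rho = -0.36) and heme synthesis (rho = -0.15) fell with it. The values therefore describe these cells only, and the part of depth in them was not tested. The split by Kit was chosen after the data were seen. The 59 members with Kit had 506 CPM of globins against 1332 in the 98 without, 10389 against 8937 of ribosome biogenesis, 2160 against 2611 of heme synthesis and 11572 against 13583 of G2/M genes. Of 7298 genes measured in this split, 4.92% were at least 2-fold higher with Kit and 2.55% lower. All 4 globins were among the lower, with a median of -1.42, and 1 of 12 heme genes was, whereas all 18 ribosome biogenesis genes were within 2-fold. Members with Kit were deeper (median 10700 against 8721 UMIs), and the part of depth in this split was not tested. Joint markers also went with this split, at 1846 CPM with Kit and 59.2 without, and 4 cells of each side were above 1000 CPM. Without those cells joint markers were at 9.81 and 9.21 CPM, and the sums were 558 against 1339 CPM for globins, 10397 against 8977 for ribosome biogenesis, 2264 against 2604 for heme synthesis and 12079 against 13547 for G2/M genes. With 15 cells, the members with Alas2 gave little precision: 11.5% of 7459 genes were at least 2-fold higher and 10.9% lower in members without Alas2, and 3 of 4 globins were among the lower (median -1.44).

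**Figure D4:**
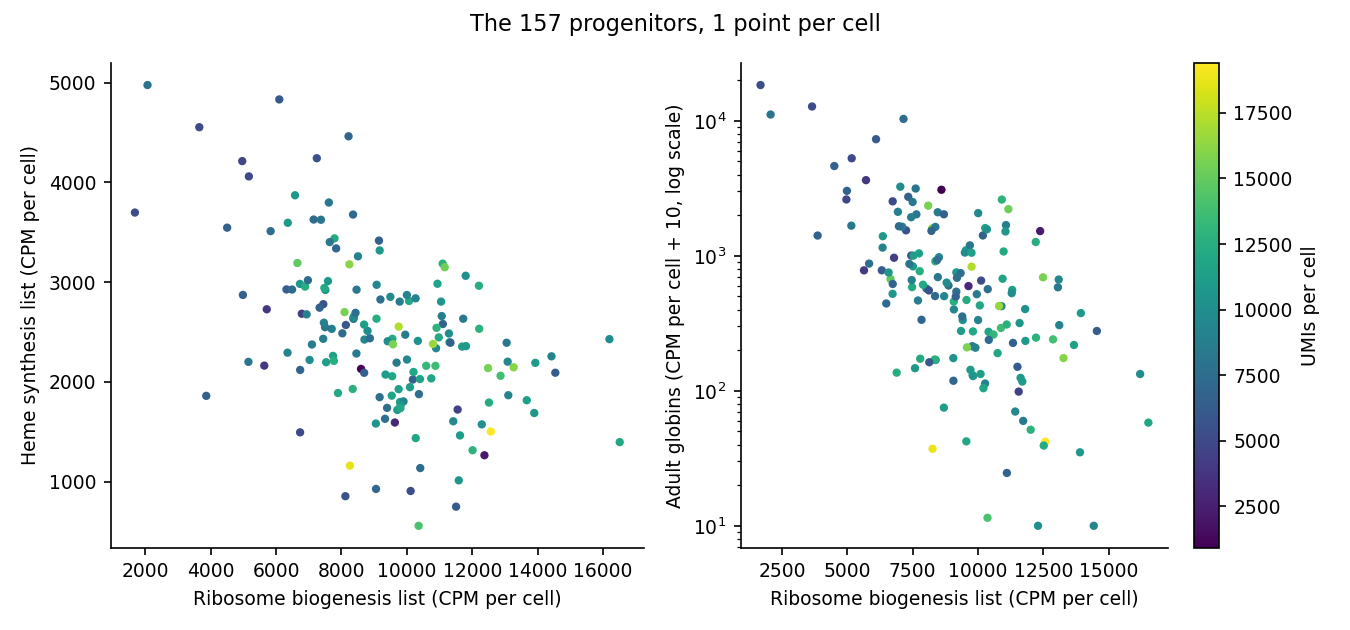
Summed heme synthesis genes (left, CPM per cell) and summed adult globins (right, CPM + 10 per cell on a log axis) against summed ribosome biogenesis genes (CPM per cell) in the 157 progenitors, 1 point per cell, colored by total UMIs. Cells high in ribosome biogenesis tend to be low in heme synthesis (r = -0.51), with wide scatter.

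Against the rest of the library, the members were higher in erythroid and cell cycle genes and lower in most genes of the gp130 and STAT3 pathway, the subject of the study. The rest is mixed, and 1449 of its 3980 cells had Myb, Klf1, Gata1, Slc4a1 or Alas2, so values are given against the other 2531 cells, a comparison added after the data were seen, with the whole rest beside it. Of 9543 genes 25.4% were at least 2-fold higher in members and 34.9% lower against the cells without erythroid genes (9.76% and 28.3% of 9038 genes against the whole rest). The 2531 cells had none of Myb, Klf1, Gata1, Slc4a1 and Alas2 by choice. Higher erythroid genes in members were partly set by this and are a description. All 15 CFU-E stage genes were higher, with a median log2 ratio of 4.03 (1.16 against the whole rest, with 10 of 15). Against the whole rest without cells above 1000 CPM of joint markers, which left 927 cells, 837 of them with an erythroid gene, the CFU-E median turned to -0.20 and the heme median to -0.50. Car1 and Car2, the carbonic anhydrases of red cells, were at 554 and 3445 CPM against 15.1 and 134. Ermap and Rhd, which encode blood group proteins, were at 474 and 249 CPM against 22.3 and 12.5. All 43 S phase genes and 51 of 53 G2/M genes were higher (10 of each list against the whole rest). Of 18 ribosome biogenesis genes 17 were higher in both comparisons. The highest 10 ratios to the whole rest, among 2053 genes of sufficient size, were led by Lgals9 (galectin-9), at 282 against 65.6 CPM (2.09), and Spn (CD43, the sialophorin of blood cells), at 114 against 26.3 (2.07). Mthfd1, Vamp5, Car1, Cenpv, C1qtnf12, Bri3bp and Lyar, 7 others of the 10, had ratios from 1.72 to 1.85.

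Of 9 genes of the gp130 and STAT3 pathway, 6 were at least 2-fold lower in members than in the cells without erythroid genes and 0 higher, with a median of -3.74 (6 lower and 0 higher against the whole rest as well). Stat3 was at 8.91 CPM in members, 11.7 in the later stage and 131 in the cells without erythroid genes. Il6st, which encodes gp130, was at 1.44, 5.91 and 162 CPM, and Lifr, a receptor that pairs with it, at 0.228, 7.20 and 132. Thinned, Stat3 had a UMI in 3.23% of members (1.06 to 7.37%), 2.60% of later-stage cells and 26.5% of the cells without erythroid genes. Jak1, a kinase shared by many cytokine receptors, was at 128, 121 and 222 CPM, within 2-fold.

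The same rule found 0 of 1340 cells in the mutant library, which allows a share of up to 0.224% by a limit of 3 counts and up to 0.275% by the exact interval. Both limits are on cells in which these UMIs were detected, not on cells of this kind. The median depth was 3743 UMIs in the mutant library, 4344 in all control cells and 9449 in the members. Myb was above 0 in 18 mutant cells, with a median of 1449 UMIs per cell, and 0 of these had Klf1 or Gata1. The later stage was also scarce there, with 9 cells. Genotype, pool and sort were each carried by 1 library and cannot be told apart, so the members could not be compared between the genotypes.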

How the data were processed

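Single cells of 1 control and 1 Stat3 mutant library were read from the tables the authors deposited. The authors worked in Partek Flow, where reads were aligned to mm10 by STAR 2.7.3a (versions from the submitters' processing notes, which also list R 4.0.3), collapsed by UMI and assigned to Gencode genes. Barcodes were accepted by a knee plot, and SoupX took out ambient RNA. Each gene value deposited for a cell is log2(CPM + 1). Beside them the authors deposited a total, an estimated count that is not whole, the mitochondrial and ribosomal share as a percent, and a score that gives the number of expressed genes. The control table falls a few cells short of the number in the study's methods and holds cells above their mitochondrial limit of 5%, and all cells were used. Estimated UMIs were recovered from the CPM and the total, and 74.9% of nonzero values lay within 0.1 of a whole number, so count tests were not used.

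UMIs were summed over a group of cells and scaled to CPM, with a pseudocount of 1 CPM in log2 ratios and a minimum of 10 CPM in either group. Shares have exact Clopper-Pearson 95% intervals. Thinning used 2638 UMIs, the 10th percentile of the shallower erythroid group, with seed 1. Doublets were called with Scrublet (scanpy 1.11.5, expected rate 0.05). Scripts ran in Python 3.11.15 with numpy 2.4.6, pandas 2.3.3 and scipy 1.17.1, and the ratios were tested on simulated data. Named genes were those of the lists, plus the 10 highest and 10 lowest ratios to the later stage and the 10 highest to the rest among genes above 0 in at least 10% of cells of either group and at 100 CPM or more, without the 6 rule genes. Members and lists were chosen with earlier results of these data known. Ahsp was not analysed here, and some genes that this rule names are not reported here. Gene positions are from the Gencode annotation on GRCm38, and the alternatives tried were 14 planned and 2 added after seeing the data, beside the added split by Kit, which was also computed without cells high in joint markers.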

Additional observations from a re-analysis of the deposited data

How the results depend on the processing

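The results rest on 1 control library, so the alternatives show dependence on choices and not replicate error. No paired analysis was possible because each genotype had 1 library and no result came from a test. The ribosome biogenesis, heme, globin, membrane and late maturation medians against the later stage kept their direction under all 15 alternatives run for each (14 for globins), with ranges of 1.30 to 1.62, -1.02 to -0.84, -4.17 to -3.62, -1.19 to -0.98 and -0.98 to -0.65, and the S and G2/M sums under all 12 run for each (-0.60 to -0.49 and -0.68 to -0.56). The erythroid transcription factor median turned to -0.12 with thinned cells. Stricter rules gave 66 members (Myb at 2 or more UMIs) and 83 (both Klf1 and Gata1). Genes at least 2-fold higher and lower numbered 224 and 264 with a pseudocount of 10 CPM and 979 and 1489 without the filter on low values. Shares of members with Kit, Pklr and Cdk6 were 50%, 77.3% and 78.8% with Myb at 2 or more UMIs, and those with Kit, Btk, Pklr and Cdk6 were 9.03%, 14.8%, 31.0% and 33.5% thinned. Members without against with Alas2 had a globin median of -0.74 with Myb at 2 or more UMIs, and their heme median turned to 0.022 thinned.

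The comparison with the rest depended most on what the rest held. Against the rest without erythroid genes the transcription factor, CFU-E and heme medians were 2.47, 4.03 and 2.56 and 2421 genes were higher. Without cells above 0 for Col2a1 the CFU-E median was 0.54 and 283 genes were higher, with median-of-ratios scaling 332 and with a pseudocount of 10 CPM 387 were higher, and without the filter 5080 were lower. Leaving out cells above 1000 CPM of joint markers, an alternative added after seeing the data, also took 3053 of the 3980 cells out of the rest, and 837 of the 927 that remained had Myb, Klf1, Gata1, Slc4a1 or Alas2. The CFU-E and heme medians then turned to -0.20 and -0.50, the transcription factor and ribosome biogenesis medians were 0.050 and 0.59, and 110 genes were higher and 178 lower.

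Of single genes, 18 values against the later stage turned or went to 0, most of them of joint markers. Without cells above 1000 CPM of joint markers they were Cdkn1a (0.56), Comp (0.30), Col11a1 (0.18), Col1a1 (0.11), Cnmd (0.077), Sdc4 (0.049), and Hapln1, Col9a2 and Col9a3 (all 0). Without Col2a1 cells they were Col11a1 (0.13), Col2a1 and Col9a3 (both 0, the former by construction), without called doublets Alpl (-0.53) and Cxcl12 (0.057), and with the later stage at 2 or more UMIs of Slc4a1 and Alas2 they were Fn1 (0.66), Prg4 (0.26), S100a8 and S100a9 (both 0). The cause of the other movements was not tested. Depth limits what could be seen of low genes, and Myb rounded to 1 UMI in 91 of the 157 members.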
